A study of Mus musculus with 8 samples.

Results

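The 10 genes described here encode proteins of neutrophil granules, the calprotectin subunits, and a chemokine receptor of neutrophils. They are S100a8, S100a9, Camp, Ngp, Ltf, Chil3, Retnlg, Mpo, Elane and Cxcr2, chosen by name and matched by NCBI gene ID. The choice was made with earlier results of these data known. All 10 were found among the 45777 genes of the deposited table, in 4 liver and 4 colon libraries. RNA of mouse liver and colon was sequenced from animals with non-alcoholic steatohepatitis (NASH, a fatty and inflamed liver), from NASH animals that received extracellular vesicles (EVs) of bovine colostrum at a low dose (EV low dose) or a high dose (EV high dose), and from control animals. That the EV animals had NASH was taken from the text on the design. Each group had 1 library per tissue, so each comparison is between 2 libraries, no test was run, and the spread between animals is unknown. The sources used here do not state the amounts of EVs, the strain, sex, age, diet or route, or whether animals were pooled.

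Neutrophils are short-lived white blood cells that are made in the bone marrow and enter tissues along chemokine gradients. Their granules are filled in order during maturation. Azurophil granule genes such as Mpo and Elane are transcribed in early precursors, specific granule genes such as Camp, Ngp and Ltf in later ones, and S100a8 and S100a9 remain abundant in mature neutrophils. In steatohepatitis neutrophils gather in the liver, and calprotectin, the dimer of S100A8 and S100A9, is a common marker of myeloid inflammation, also in the gut.

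The promoters of the 5 members that were at least 2-fold apart between liver libraries are shown because these genes lay in the same direction as each other in all 3 main comparisons. Each run is the 250 bases before the RefSeq gene start (GRCm38.p6), 5′ to 3′ on the gene's own strand. Capitals mark matches to TTNNGNAA or its reverse complement TTNCNNAA, a pattern of the C/EBP factors, and to AGGAAGT or its reverse complement ACTTCCT, a pattern of PU.1. The windows are chr3:90668821-90669070 on the plus strand for S100a8, chr3:90695722-90695971 on the minus strand for S100a9, chr9:109849457-109849706 on the minus strand for Camp, chr9:110419558-110419807 on the plus strand for Ngp and chr3:106167565-106167814 on the minus strand for Chil3.
S100a8: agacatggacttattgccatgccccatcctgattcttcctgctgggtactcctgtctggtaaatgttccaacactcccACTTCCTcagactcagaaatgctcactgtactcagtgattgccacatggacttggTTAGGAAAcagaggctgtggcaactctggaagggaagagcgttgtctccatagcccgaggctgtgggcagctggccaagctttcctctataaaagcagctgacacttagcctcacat
S100a9: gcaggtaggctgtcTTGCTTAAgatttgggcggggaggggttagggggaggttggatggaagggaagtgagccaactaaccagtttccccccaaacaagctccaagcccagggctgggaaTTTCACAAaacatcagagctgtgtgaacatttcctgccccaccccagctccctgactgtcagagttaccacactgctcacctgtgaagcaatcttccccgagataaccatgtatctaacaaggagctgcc
Camp: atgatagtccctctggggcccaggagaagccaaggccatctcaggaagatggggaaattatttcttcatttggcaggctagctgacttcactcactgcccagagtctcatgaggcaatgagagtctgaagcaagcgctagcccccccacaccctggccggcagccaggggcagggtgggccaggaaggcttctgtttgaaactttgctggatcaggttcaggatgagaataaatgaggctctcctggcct
Ngp: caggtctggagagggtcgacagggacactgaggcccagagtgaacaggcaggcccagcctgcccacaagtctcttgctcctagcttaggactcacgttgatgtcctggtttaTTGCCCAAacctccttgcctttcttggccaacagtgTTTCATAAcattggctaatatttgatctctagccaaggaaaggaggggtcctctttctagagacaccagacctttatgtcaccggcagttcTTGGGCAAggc
Chil3: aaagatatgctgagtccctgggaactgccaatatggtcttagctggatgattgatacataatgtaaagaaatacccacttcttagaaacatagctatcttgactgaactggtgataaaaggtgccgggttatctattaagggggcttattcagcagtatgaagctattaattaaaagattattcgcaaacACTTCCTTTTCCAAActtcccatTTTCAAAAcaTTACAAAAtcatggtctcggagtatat

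C/EBP factors and PU.1 are transcription factors of the granulocyte and myeloid lineages. The C/EBP-type pattern was present in the window of 6 of the 10 members (S100a8, S100a9, Ngp, Ltf, Chil3 and Retnlg), against 36.9% of the windows of 27025 genes. The PU.1-type pattern was present in 4 of 10 (S100a8, Chil3, Mpo and Elane), against 7.8% of all windows. In Ngp the C/EBP-type pattern occurred 3 times, from base -138, base -102 and base -11 before the start. In Chil3 it also occurred 3 times, from base -53, base -37 and base -27. The first of these lay directly next to a PU.1-type match that began at base -60. The windows of Camp and Cxcr2 held neither. A match describes letters only, and binding was not measured.

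**Figure D1:**
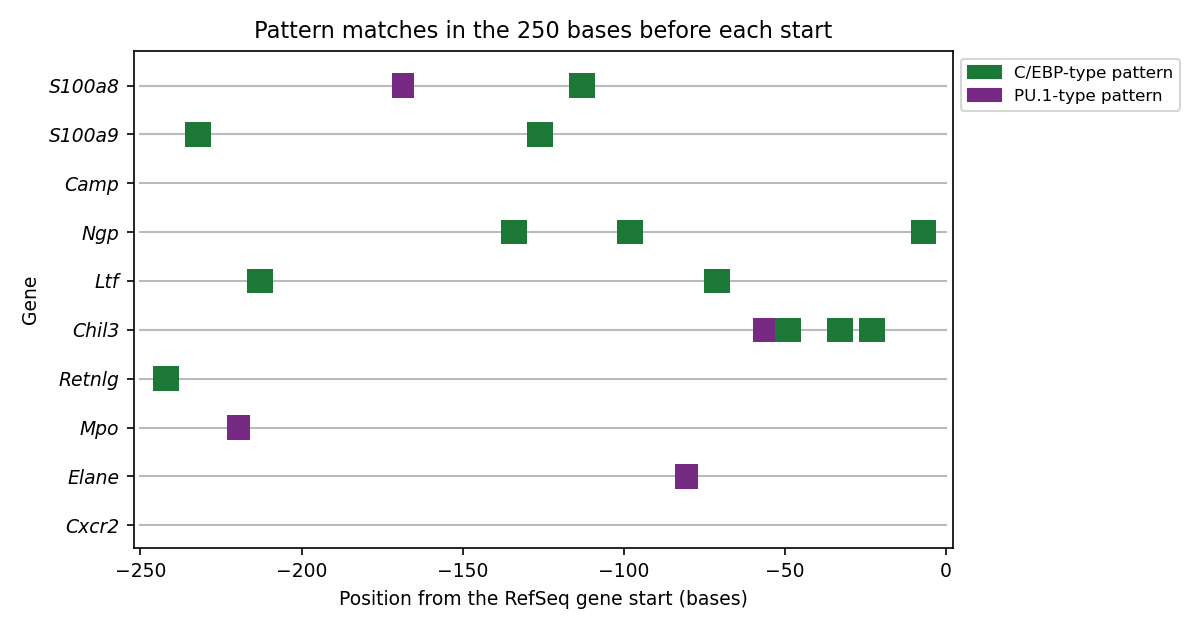
Positions of pattern matches in the 250 bases before the RefSeq start of each of the 10 genes, with distance from the start in bases on the x axis and 1 line per gene. Green boxes are C/EBP-type and purple boxes PU.1-type matches on either strand. Chil3 has 4 matches between base -60 and base -20, and Camp and Cxcr2 have none.

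Several members are genomic neighbours. S100a8 (gene ID 20201, chromosome 3, 90669071 to 90670034) and S100a9 (gene ID 20202, chromosome 3, 90692630 to 90695721) lie 22.6 kb apart on opposite strands (gaps by the GENCODE annotation). Camp (gene ID 12796, chromosome 9, 109847377 to 109849456), Ngp (gene ID 18054, chromosome 9, 110419808 to 110423012) and Ltf (gene ID 17002, chromosome 9, 111019292 to 111042766) lie in that order, separated by 570 kb and 596 kb. Elane (gene ID 50701, chromosome 10, 79886312 to 79888216) starts 3.07 kb after Prtn3, which encodes another serine protease of azurophil granules. Chil3 (gene ID 12655, chromosome 3, 106147554 to 106167564) lies 33.9 kb from its close relative Chil4. Retnlg (gene ID 245195, chromosome 16, 48872608 to 48874498) lies 28.2 kb from Retnla and 53.7 kb from Retnlb, and reads of such relatives can be hard to assign. Mpo (gene ID 17523) is on chromosome 11, and Cxcr2 (gene ID 12765) is on chromosome 1.

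Values are FPKM (fragments per kilobase of transcript, scaled to the mapped fragments) as deposited, so levels of different genes can be set side by side per length. The read depth is unknown, and a value of 0 is given as listed at 0. Ratios were taken on log2(FPKM + 1), a scale that makes differences of low genes look smaller than they are. In liver the median gene stood at 0.55 in NASH over control, at -0.14 for EV low dose over NASH and at -0.13 for EV high dose over NASH, so liver ratios are relative to the median gene. Colon medians lay between -0.06 and 0.08 and colon ratios are as deposited. Genes with 1 FPKM or more in any of the 4 libraries of a tissue were kept, which held for 12866 genes in liver and 15245 in colon. Of the 10 members 7 were kept in liver and 2 in colon.

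All 10 members were above 0 in the NASH liver, and each had its highest liver value there. Of all 25326 genes above 0 in a liver library, 50.2% were highest in the NASH library. In the control liver 4 members were above 0 and 6 were listed at 0. Those 6 were Camp, Ngp, Ltf, Mpo, Elane and Cxcr2.

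The calprotectin subunits were the most abundant members in each liver library. S100a8 was at 26.7 FPKM in NASH, 6.89 in EV low dose, 8.65 in EV high dose and 1.95 in control. S100a9 was at 33.2 FPKM in NASH, 10.2 in EV low dose, 9.46 in EV high dose and 2.08 in control. Both genes thus had the same order of groups apart from the EV doses, which lay close to each other. Relative to the median gene, S100a8 was higher by 2.68 and S100a9 by 2.92 on the log2 scale in NASH over control. In EV low dose over NASH the log2 ratios were -1.68 for S100a8 and -1.47 for S100a9, and in EV high dose over NASH they were -1.39 and -1.58. Summed, calprotectin FPKM in the EV low dose liver was 28.6% and in the EV high dose liver 30.2% of that in the NASH liver, and in the control liver 6.72%. The subunits kept a similar balance: S100a8 FPKM over S100a9 FPKM was 0.803 in NASH, 0.673 in EV low dose, 0.914 in EV high dose and 0.938 in control liver. In such tissue RNA, fewer cells of a type and less RNA per cell cannot be told apart.

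Chil3, a chitinase-like lectin of mouse neutrophils and macrophages also known as Ym1, followed calprotectin closely. It was at 7.92 FPKM in NASH, 2.49 in EV low dose, 1.96 in EV high dose and 0.132 in control liver. The log2 ratios of Chil3 were 2.42 in NASH over control, -1.22 in EV low dose over NASH and -1.46 in EV high dose over NASH. Its near relative Chil4 was listed at 0 in all 8 libraries.

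The specific granule genes were less abundant per length than calprotectin and were at or near 0 outside the NASH library. Camp, the cathelicidin precursor that yields an antimicrobial peptide, was at 3.29 FPKM in NASH and listed at 0 in EV low dose, EV high dose and control liver. Ngp, a cathelicidin-related granule protein, was at 2.06 FPKM in NASH and 0.171 in EV low dose, and was listed at 0 in EV high dose and control. Ltf, which encodes the iron-binding protein lactoferrin, was at 1.03 FPKM in NASH, 0.0733 with the low EV dose and 0.108 with the high EV dose, and was listed at 0 in control. These 3 genes thus stood apart in 1 library and at or near 0 in the others. Ngp had a log2 ratio of -1.25 in EV low dose over NASH. Ltf stayed within 2-fold on this scale, at -0.79 with the low EV dose and -0.74 with the high EV dose over NASH.

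The azurophil granule genes had the lowest levels. Mpo, which encodes myeloperoxidase, an enzyme that makes hypochlorous acid, was at 0.449 FPKM in the NASH liver. Elane, which encodes neutrophil elastase, was at 0.280 FPKM there. Both were listed at 0 in the EV low dose, EV high dose and control livers and in all 4 colon libraries. Camp, Mpo and Elane were above 0 in the NASH liver alone, a pattern held by 3.72% of the 25326 genes above 0 in a liver library. The same pattern for the EV low dose library was held by 2.94%, for EV high dose by 3.3% and for control by 1.81% of these genes, and by no member.

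Retnlg, a resistin-like secreted protein of neutrophils, was within 2-fold in the 3 main comparisons on log2(FPKM + 1) relative to the median gene. As deposited, Retnlg was past 2-fold in NASH over control, at a log2 ratio of 1.10. Without the added 1 FPKM, Retnlg with the low and the high EV dose was at 41.8% and 36.8% of its NASH FPKM. It was at 1.82 FPKM in NASH, 0.761 in EV low dose, 0.668 in EV high dose and 0.318 in control liver, with log2 ratios of 0.54 in NASH over control, -0.54 in EV low dose over NASH and -0.62 in EV high dose over NASH. Cxcr2, the receptor for the neutrophil-attracting CXC chemokines, was at 0.454 FPKM in NASH liver, 0.367 with the low EV dose and 0.188 with the high EV dose and was listed at 0 in control. It reached 1 FPKM in no library and so has no ratio here.

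**Figure D2:**
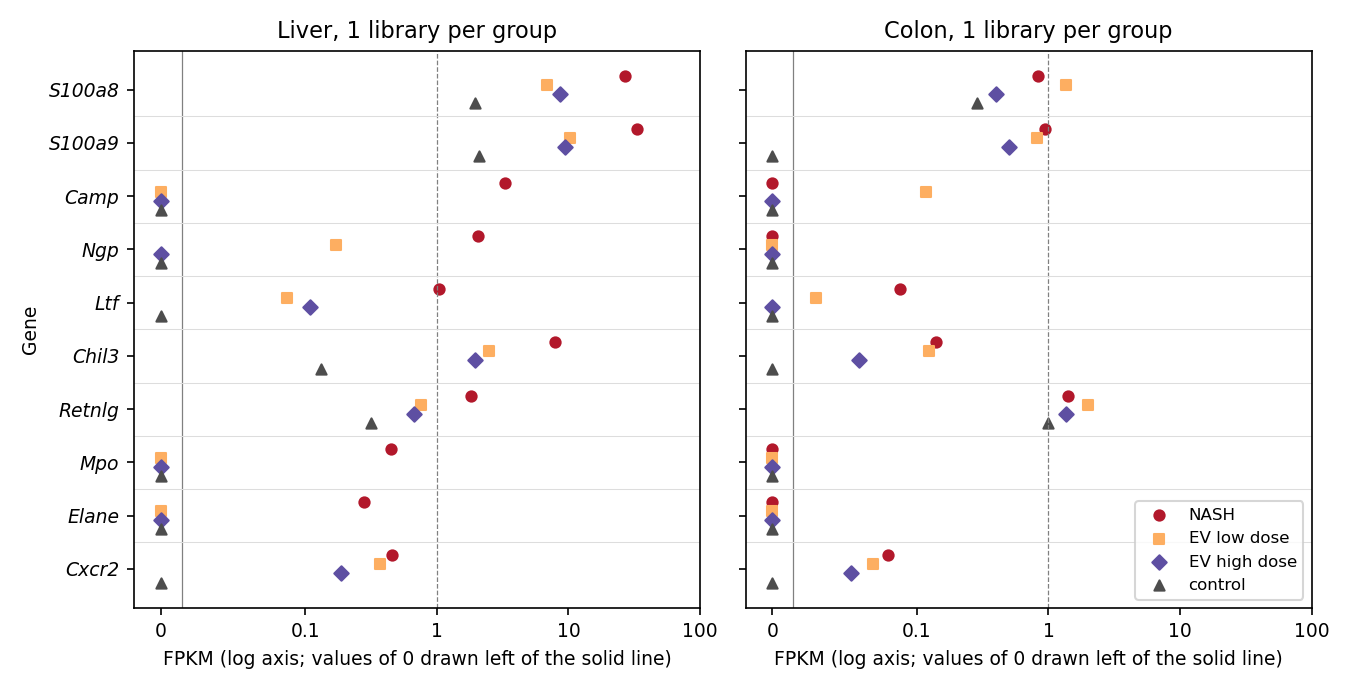
FPKM of each of the 10 members (rows) in the 4 liver libraries (left) and the 4 colon libraries (right), on a log x axis, with values of 0 drawn left of the solid line and 1 FPKM dashed. Each point is 1 library, so there are no error bars. In liver the NASH point is the rightmost for each gene, from 0.280 FPKM for Elane to 33.2 for S100a9, and in colon no member reaches 2 FPKM.

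In NASH over control liver, 5 of the 10 members were at least 2-fold higher and none lower. These were S100a8, S100a9, Camp, Ngp and Chil3. Ltf and Retnlg were within 2-fold and Mpo, Elane and Cxcr2 were not kept. Of all genes kept, 7.21% were 2-fold higher and 7.66% lower in this comparison. Because the members were chosen with earlier results known, such shares are given as description and not as a test. Without the shift to the median gene these shares were 20.5% and 3.23%, and 7 members counted as higher.

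With either EV dose the same 5 genes were at least 2-fold lower than in the NASH liver and no member was higher. In EV low dose over NASH, 0.225% of all kept genes were 2-fold lower and 0.443% higher, or 0.381% and 0.311% without the shift. In EV high dose over NASH, 0.373% were 2-fold lower and 0.816% higher, or 0.723% and 0.552% without the shift. Both comparisons use the same NASH library, so they are not independent of each other or of the comparison of NASH with control.

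The filter bears on these counts, since Camp, Ngp, Ltf and Retnlg were kept through the NASH library alone. Of the 450 liver genes kept that way, 2% were 2-fold lower with the low EV dose and 2.22% with the high EV dose than in NASH, and 1.11% were 2-fold higher in NASH than in control. Of these 4 members, Camp and Ngp passed in each of the 3 comparisons. With no filter and no log scale, 9 of 10 members with the low EV dose and 10 of 10 with the high EV dose had less than 50% of their NASH FPKM. The exception was Cxcr2 at 81% in EV low dose. Of all 22245 genes above 0 in the NASH liver, 17.4% were below 50% with the low EV dose and 18.6% with the high EV dose.

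**Figure D3:**
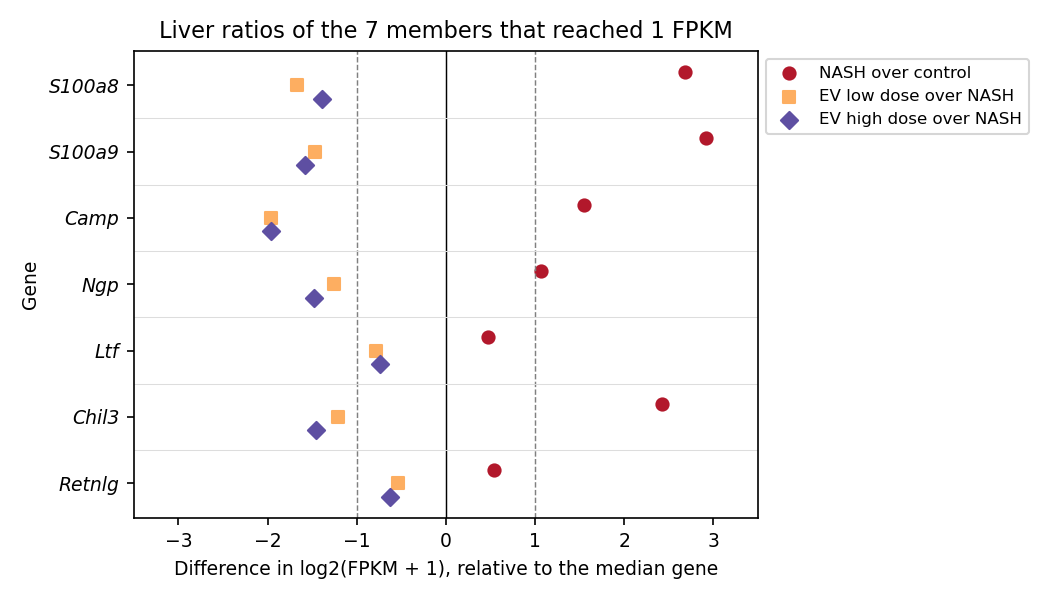
Differences in log2(FPKM + 1) relative to the median gene for the 7 members kept in liver, for NASH over control (circles), EV low dose over NASH (squares) and EV high dose over NASH (diamonds), each from 2 libraries, with dashed lines at 2-fold. S100a8, S100a9, Camp, Ngp and Chil3 lie outside the dashed lines in all 3 comparisons. Each value for Camp rests on a library listed at 0. So do NASH over control and EV high dose over NASH for Ngp, and NASH over control for Ltf. These values depend on the added 1 FPKM.

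The EV libraries can also be set against the control liver, which leaves the NASH library out. Here 3 members, S100a8, S100a9 and Chil3, were at least 2-fold higher with each dose and none was lower. Of all kept genes 6.5% were 2-fold higher and 5.69% lower with the low dose, and 6.28% higher and 5.14% lower with the high dose. The log2 ratios with the low dose were 1.03 for S100a8, 1.48 for S100a9 and 1.24 for Chil3, and with the high dose 1.33, 1.38 and 1.001. Calprotectin was thus intermediate, while Camp, Mpo and Elane were listed at 0 in both EV livers and in control alike. Between the doses no member was 2-fold apart, against 0.303% of genes higher and 0.163% lower in the high dose. The widest log2 ratios of high over low dose were 0.29 for S100a8 and -0.24 for Chil3.

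The level of the granule genes relative to calprotectin was highest in the NASH liver. The summed FPKM of Camp, Ngp, Ltf, Mpo and Elane was 7.11 in NASH, 0.245 with the low EV dose and 0.108 with the high EV dose, and these genes were listed at 0 in control. Relative to calprotectin this was 11.9% in NASH, 1.43% with the low EV dose and 0.596% with the high EV dose.

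Of 5 other genes of azurophil granule proteins and their inhibitors (Prtn3, Ctsg, Ms4a3, Bpi and Serpinb1a), 1 was kept in liver, the protease inhibitor Serpinb1a, and it was within 2-fold in each of the 3 comparisons. The rest are named after their values were seen. Prtn3 was at 0.519 FPKM in NASH, 0.0940 in EV low dose, 0.126 in EV high dose and 0.0640 in control. Ctsg, which encodes cathepsin G, was at 0.413, 0.0348 and 0.0370 FPKM in NASH, EV low dose and EV high dose and listed at 0 in control. Bpi was listed at 0 in all 8 libraries.

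The list of specific and gelatinase granule genes holds several that other cells share. In NASH over control 6 of 10 were 2-fold higher, none was lower and 4 were not kept, and in either EV dose over NASH none was 2-fold apart relative to the median gene. As deposited, Lcn2 alone of the 6 kept was 2-fold lower in EV high dose over NASH, at a log2 ratio of -1.09, against -0.96 relative to the median gene. Lcn2, which encodes lipocalin-2 of specific granules and is also an acute phase product of hepatocytes, was at 633 FPKM in NASH, 322 in EV low dose, 296 in EV high dose and 1.80 in control liver. Cybb, the catalytic subunit of the phagocyte NADPH oxidase, was at 23.0 FPKM in NASH, 22.0 in EV low dose, 22.0 in EV high dose and 2.70 in control. Its partner Cyba was at 40.0, 37.8, 34.7 and 5.77 FPKM in the same order. Anxa1, an anti-inflammatory annexin, was at 13.2 FPKM in NASH, 11.05 in EV low dose, 11.001 in EV high dose and 1.58 in control.

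Of 14 surface receptors of neutrophils 5 were 2-fold higher in NASH over control (7 as deposited), 4 were within 2-fold and 5 were not kept, and none of the 9 kept was 2-fold apart in either EV dose over NASH. Itgb2, the shared chain of the leukocyte integrins, was at 19.1 FPKM in NASH, 15.8 in EV low dose, 15.9 in EV high dose and 1.42 in control. Fcgr4, an IgG receptor of neutrophils and macrophages, was at 16.5, 16.2, 13.1 and 2.23 FPKM in the same order. Csf3r, the receptor for granulocyte colony-stimulating factor, is named after its values were seen. It was at 3.04 FPKM in NASH, 1.58 in EV low dose, 1.52 in EV high dose and 0.320 in control.

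Of 10 neutrophil attractants and growth factors 3 were kept in liver, and relative to the median gene none was 2-fold apart in any of the 3 comparisons. As deposited, 1 of the 3 was 2-fold higher in NASH over control, Cxcl1, at a log2 ratio of 1.31, against 0.76 relative to the median gene. Cxcl1, a ligand of Cxcr2, was at 22.9 FPKM in NASH, 28.8 in EV low dose, 34.1 in EV high dose and 8.64 in control. Cxcl2 was at 1.15, 1.14, 0.952 and 0.116 FPKM in the same order. Csf3 and Il17a were listed at 0 in all 8 libraries.

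Of 7 granulocyte transcription factors 2 were 2-fold higher in NASH over control liver, Spi1 and Cebpd (as deposited 3, with Cebpb), and none was 2-fold apart in either EV dose over NASH. Spi1, which encodes PU.1, was at 10.3 FPKM in NASH, 7.88 in EV low dose, 7.17 in EV high dose and 1.43 in control. Cebpe, which drives specific granule genes, was at 2.12, 2.52, 1.55 and 2.35 FPKM in the same order. Of 6 genes for calprotectin receptors and their partners, Cd14, the endotoxin co-receptor, was 2-fold higher in NASH over control, and none was 2-fold apart with EVs. As deposited, Tlr4 was 2-fold higher too, at a log2 ratio of 1.33, against 0.78 relative to the median gene, which makes 2 of the 5 kept. Cd14 was at 14.5 FPKM in NASH, 8.22 in EV low dose, 7.34 in EV high dose and 0.704 in control, and Tlr4 at 3.75, 3.98, 3.97 and 0.889 FPKM. Of 9 other S100 genes 4 were higher and 1 lower in NASH over control (5 and 1 as deposited), and relative to the median gene none was 2-fold apart with EVs. S100a11 was at 6.68 FPKM in NASH, 5.60 in EV low dose, 2.64 in EV high dose and 0.267 in control liver. As deposited, S100a11 was 2-fold lower in EV high dose over NASH, at a log2 ratio of -1.08, against -0.94 relative to the median gene. Among them S100a4 was at 10.8 FPKM in NASH, 7.45 in EV low dose, 9.55 in EV high dose and 0.835 in control.

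Markers of other blood and myeloid cells were read beside these results. Monocyte markers summed to 46.0 FPKM in NASH, 41.9 in EV low dose, 50.7 in EV high dose and 7.18 in control liver, led by Plac8 and Ccr2. Macrophage markers, led by Lyz2 and C1qa, summed to 623, 575, 645 and 124 FPKM in the same order, and Kupffer cell markers, led by Cd5l and Clec4f, to 426, 441, 449 and 83.02 FPKM. In NASH over control 3 of 5 monocyte, 6 of 8 macrophage (7 as deposited) and 4 of 5 Kupffer cell markers were 2-fold higher, and none of these was 2-fold apart in either EV dose over NASH. These sums in the EV livers were 91% to 110% of the NASH liver, where calprotectin was at 28.6% and 30.2%. Other neutrophil lists lay between these. The 14 surface receptors summed to 85.7% with the low and 84.4% with the high EV dose. The specific and gelatinase granule genes, led by Lcn2, summed to 55.6% and 51.5%, and the 5 other azurophil granule genes to 47.0% and 40.1%. Lcn2 made up 633 of the 718 FPKM of its list in NASH. The other kept genes of that list were at 65.4% to 95.7% of NASH with the EV doses, and those not kept at 0% to 82.0%. In the azurophil list Serpinb1a was at 97.9% and 84.1%, and the others above 0 in NASH were at 0% to 55.7%. The monocyte sum rests on Plac8 and Ccr2, and the other 3 markers of that list were lower in the EV livers than in NASH. Ly6c2 was at 58.0% and 67.7%, Vcan at 55.3% and 62.3% and F13a1 at 61.1% and 46.8% of their NASH FPKM with the low and the high EV dose, and Vcan and F13a1 were below 1 FPKM in each liver library. These 3 are named after their values were seen. Erythroid markers, led by Hbb-bs and Hba-a1, summed to 562 FPKM in NASH, 574 in EV low dose, 605 in EV high dose and 960 in control liver. Eosinophil markers summed to 1.31 FPKM or less, mast cell markers to 0.27 or less and squamous epithelium markers to 0.316 or less in each liver library. Of the squamous list Krt14, Krt13 and Krt6a were listed at 0 in all 4 livers, while Krt5 was at 0.307 FPKM in NASH and 0.0789 in EV low dose and listed at 0 in EV high dose and control, an order like that of the granule genes. The summed squamous markers in the EV livers were 35.7% and 2.39% of the NASH liver, and their part in the results was not tested. The part of monocytes and macrophages, which also transcribe calprotectin and Chil3, was not tested.

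**Figure D4:**
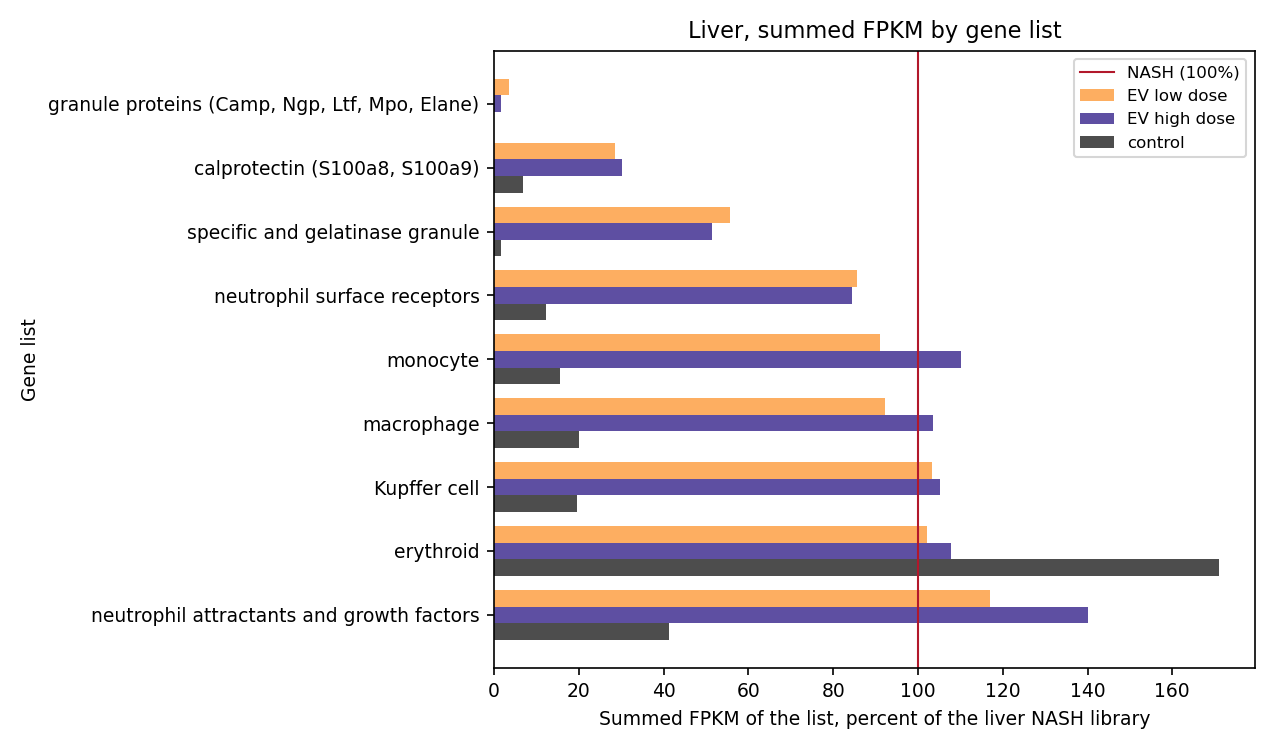
Summed FPKM of gene lists in the EV low dose, EV high dose and control livers as a percent of the NASH liver (vertical line at 100%), with 1 library per bar and bars from 0. The granule genes stand at 3.44% and 1.52% and calprotectin at 28.6% and 30.2% in the EV livers. Specific and gelatinase granule genes, mostly Lcn2 by FPKM in the NASH and EV livers, stand at 55.6% and 51.5%. Neutrophil surface receptors stand at 85.7% and 84.4%. Monocyte, macrophage and Kupffer cell markers stand between 91% and 110%.

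In colon the 10 genes were at low levels. They summed to 3.46 FPKM in NASH, 4.49 in EV low dose, 2.32 in EV high dose and 1.28 in control. S100a8 was at 0.836 FPKM in NASH, 1.36 in EV low dose, 0.400 in EV high dose and 0.288 in control. S100a9 was at 0.934 FPKM in NASH, 0.819 with the low EV dose and 0.499 with the high EV dose and was listed at 0 in control. The control colon thus had the lowest value of both subunits, at levels where 1 library gives little precision. Chil3 was at 0.140 FPKM in NASH, 0.123 with the low EV dose and 0.0366 with the high EV dose and was listed at 0 in control. Ltf and Cxcr2 stayed at 0.0738 FPKM or less, Camp was above 0 in EV low dose alone (0.118 FPKM), and Ngp, Mpo and Elane were listed at 0 in all 4 colon libraries.

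Retnlg was the most abundant member in each colon library. It was at 1.41 FPKM in NASH, 1.997 in EV low dose, 1.36 in EV high dose and 0.994 in control. Its relative Retnlb, a goblet cell product, was far more abundant in the same libraries, at 149 FPKM in NASH, 658 in EV low dose, 371 in EV high dose and 1386 in control. Whether reads of the relatives reached Retnlg was not tested. Retnlg and Retnlb had different orders of groups, with Retnlg lowest and Retnlb highest in control.

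Neither of the 2 members kept in colon was 2-fold apart in NASH over control, EV low dose over NASH or EV high dose over NASH. The other 8 members were not kept and could not be counted. Without the added 1 FPKM, S100a8 in NASH colon was 2.91 times its control value. With the high EV dose S100a8 was at 47.9% of NASH. Of all kept genes, 2.43% were 2-fold higher and 1.97% lower in NASH over control, 0.905% higher and 1.95% lower in EV low dose over NASH, and 1.1% higher and 1.43% lower in EV high dose over NASH. The kept members S100a8 and Retnlg had log2 ratios of 0.51 and 0.28 in NASH over control, 0.37 and 0.31 in EV low dose over NASH, and -0.39 and -0.03 in EV high dose over NASH. Squamous epithelium markers, which mark another source of S100a8 and S100a9, summed to 0.776 FPKM or less in each colon library. Erythroid markers summed to 315 FPKM in NASH, 318 in EV low dose, 132 in EV high dose and 321 in control colon, and their part in the lower EV high dose values was not tested.

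Ly6g, a surface antigen of mouse neutrophils, was at 68.8 FPKM in NASH, 55.0 in EV low dose, 58.1 in EV high dose and 23.6 in control colon, while it was at 0.0680 FPKM or less in liver. Cd177, an adhesion protein of neutrophils, was at 42.6 FPKM in NASH, 36.4 in EV low dose, 50.7 in EV high dose and 66.4 in control colon. In the same colon libraries Csf3r was at 0.194 FPKM or less and Cxcr2 at 0.0605 or less. Of the 14 surface receptors 5 were kept in colon and 9 were not, and of those 5 Ly6g alone was 2-fold apart in NASH over control, with a log2 ratio of 1.51.

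The genes whose profiles lay nearest to calprotectin were ranked by the root mean square difference of log2(FPKM + 1), centred in each tissue, from the mean of S100a8 and S100a9. Over all 8 libraries and 10883 genes the nearest were Srxn1 at 0.320 log2 units, Ier3 at 0.346, Jun at 0.355, Cd14 at 0.361, Laptm5 at 0.366, Phlda3 at 0.367, Gadd45b at 0.368 and Serpinb6b at 0.373. Over the 4 liver libraries and 11641 genes they were Ccn2 at 0.309, Slc13a3 at 0.322, Arhgef2 at 0.363, Asns at 0.364, Col1a1 at 0.379, Ucp2 at 0.387, Cd14 at 0.391 and Cntnap1 at 0.398. Members were left out of the ranking, which over 8 libraries held only genes kept in both tissues. Chil3 and S100a9 were not kept in colon, so genes as low there as Chil3 were not ranked over 8 libraries. Chil3 lay nearer than any of the genes ranked, at 0.226 over 8 libraries and 0.178 over 4, and Camp lay at 0.534 and 0.693. The remaining members lay farther off, from Ngp at 0.562 and 0.718 to Elane at 0.790 and 1.06. On log2(FPKM + 1) low genes vary little, so the distance of these low members depends on their level as well as on their order of groups. The measure describes 1 library per group and says nothing of shared control.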

How the data were processed

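The authors deposited FPKM for 45777 NCBI gene IDs in a single table, with liver and colon libraries of mouse as 8 columns. Symbols of GRCm38.p6 were found for 45679 IDs and not for 98. Per the labels' protocols, total RNA was extracted with TRIzol plus an RNeasy Plus column, and a TruSeq Stranded Total RNA kit (Gold) served for library preparation. Trimmomatic 0.38, HISAT2 and StringTie, with the build mm10, are listed in the submitters' processing notes. The sources used here do not state their order, the strand setting or the read depth, so no counting interval can be given. Groups were taken from the sample titles.

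The members and gene lists were chosen with earlier results of these data known. Values were taken as log2(FPKM + 1). Genes reaching 1 FPKM in at least 1 of the 4 libraries of a tissue were kept, liver ratios were centred on the median gene, and 2-fold or more was counted as apart. With 1 library per group no test was run. Named were all 10 members, up to 4 genes per companion list with the widest ratios, the 2 most abundant markers of each cell type list that is described, and the 8 nearest profiles, leaving out predicted genes and small RNAs. Some exceptions are marked as named after their values were seen. Others carry no such mark, and they include Chil4, Csf3 and Il17a, and in liver Krt14, Krt13 and Krt6a. Alternatives were a pseudocount of 0.1 or 5 FPKM, exchanged centring, median-of-ratios scaling, equal sums, no filter, a filter at 5 FPKM, and the median of protein-coding genes. Promoter windows are from RefSeq, where all 10 members were found. Protein sequences were not used here. The code was tested on simulated libraries. Python 3.11.15, numpy 2.4.6, pandas 2.3.3 and matplotlib 3.10.9 were used.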

Additional observations from a re-analysis of the deposited data

Results flagged for a closer look

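Apoa1, a lipoprotein gene of the hepatocyte list, was 2-fold apart in opposite directions in the 2 tissues in NASH over control, with a log2 ratio of -1.29 in liver and 1.68 in colon. It was at 3322 FPKM in NASH and 5546 in control liver, and at 2.70 FPKM in NASH and 0.158 in control colon. In liver it is past 2-fold only relative to the median gene, with a log2 ratio of -0.74 as deposited, while the colon ratio is as deposited. Apoa1 was not alone in its list. In NASH over control colon 3 of the 4 hepatocyte markers were 2-fold higher, against 2.43% of all kept genes. In liver 2 of the 4 were 2-fold lower relative to the median gene, against 7.66%. The difference between the tissues was not tested.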

How the results depend on the processing

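With 1 library per group, leaving out a replicate could not be done, and read depth, which would set the precision of values below 1 FPKM, is unknown. No paired analysis was possible because each group has 1 library per tissue. The member counts moved by more than 1.5 times in 7 cases. With a pseudocount of 5 FPKM, 3 members were higher in NASH over control liver, 2 were lower in EV low dose over NASH and 2 in EV high dose over NASH. Of all kept genes, 3.07%, 0.0311% and 0.07% passed in these comparisons at that setting. With a filter at 5 FPKM these counts were 3, 3 and 3, as Camp and Ngp do not reach that level. Of the 7584 genes kept by that filter, 9.16%, 0.158% and 0.409% passed. With a pseudocount of 0.1 FPKM 1 member, S100a8, was higher in NASH over control colon (log2 1.27), against 5.56% of all genes kept in colon. The other 89 counts under the alternatives stayed within 1.5 times, and no ratio of a member or other named gene changed its direction while past 2-fold. Most of the counts compared were 0 in the main setting, among them every colon count, and a count of 0 has little room to move. Each liver count above 0 in the main setting moved with a pseudocount of 5 FPKM and with a filter at 5 FPKM. Chil3 fell inside 2-fold with a pseudocount of 5 FPKM, at -0.71 with the low EV dose and -0.82 with the high EV dose over NASH.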

Other observations

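Some relatives of the members were 2-fold apart between colon libraries, where neither of the 2 kept members was in the 3 main comparisons. Retnlb, a goblet cell product that acts on gut bacteria, was at 149 FPKM in NASH and 1386 in control colon (log2 -3.21), and at 658 FPKM with the low EV dose and 371 with the high EV dose against 149 in NASH (log2 2.13 and 1.31). Retn, which encodes the adipocyte hormone resistin in mouse, was at 14.5 FPKM in NASH and 3.60 in control (log2 1.76), and at 7.62 with the low EV dose and 2.26 with the high EV dose against 14.5 in NASH (log2 -0.85 and -2.25). Of other S100 genes, S100g, a calcium-binding protein of absorptive epithelium, was at 19.1 FPKM in NASH and 6.16 in control colon, and at 30.2 with the low EV dose and 8.30 with the high EV dose. S100a11 was at 4.95 FPKM with the low EV dose and 8.31 with the high EV dose, against 12.5 in NASH colon.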
